A study of Mus musculus with 3 samples.

Results

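Of the 44625 gene entries measured, 3597 carried a domain value for H3K27me3, the histone mark that Polycomb repressive complex 2 places on chromatin. The genes described here are the 441 of these with a mean of at least 1 TPM (read counts corrected for gene length and for library size), which is taken as expressed. Symbols beginning with Hox were left out, which removed 9 expressed and marked genes. Another 3133 marked genes without a Hox symbol lay below the minimum and are called silent. A further 13214 genes were expressed and had a mark value of 0. Both the mark value and the TPM values of these libraries chose the 441 genes, so their levels and mark values are a description with no test.

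H3K27me3 is deposited by the methyltransferases Ezh1 and Ezh2 together with Eed and Suz12, bound by Polycomb repressive complex 1 through its Cbx subunits, and removed by the demethylases Kdm6a and Kdm6b. The mark is best known for covering silent genes of other lineages, many of them developmental transcription factors that start in CpG-rich DNA. In skin epithelium, Polycomb complexes are known to hold back differentiation and non-epidermal genes, and the cell cycle inhibitors of the Cdkn2a locus are among their classical targets.

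RNA was measured in 3 libraries of polyadenylated RNA from back skin of wild-type (WT) mice aged 56 days, when back hair rests in its second telogen. Skin was digested with trypsin, and cells positive for integrin alpha6, the laminin receptor of basal epithelial cells, and negative for Sca1, a surface protein used to set aside epidermal and upper follicle cells, were sorted. All 3 libraries form 1 group, the sorting text names an antibody to alpha6 alone, and the collection text speaks of duplicates, so each SD may measure technical spread only. The study is titled for Prdm16, the stem cells of the hair follicle and the sebaceous gland.

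Replicates 1, 2 and 3 were sequenced to 29283936, 35264901 and 39198620 counts. Replicate 1, the shallowest, stood apart from the others, with the highest TPM of the 3 for 60.1% of expressed unmarked genes, so values are given for each library and the changes without it stand at the end. All 20 hair follicle stem cell markers examined were expressed, with Krt15 at 19607, 25612 and 24404 TPM and Cd34 at 472, 552 and 581 TPM. All 10 basal keratinocyte and all 10 suprabasal epidermal markers were expressed too, and the suprabasal markers summed to 3770, 4934 and 7889 TPM. All 9 markers of the upper follicle and infundibulum (sum 3266 to 4787 TPM) and 12 of 14 of the sebaceous gland (343 to 438) were expressed. Ly6a, the gene for Sca1, was itself listed at 3.16, 11.6 and 8.99 TPM. Of the markers of other cells, 5 of 8 for melanocytes (sum 40.0 to 60.6 TPM), 2 of 9 for fibroblasts (18.002 to 45.3), 3 of 8 for immune cells (14.7 to 24.7), 3 of 8 for neural, glial and Merkel cells (3.83 to 6.32), 0 of 6 for endothelium (0.239 to 0.373) and 0 of 5 for muscle (0.817 to 1.69) were expressed. In bulk RNA, fewer cells of a type and less RNA per cell cannot be told apart, and what those cells contributed to the marked genes was not tested.

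The source cells, unit and peak method of the mark values were not given in the sources used here. Values read as lengths in bases: neighbouring genes repeated 1 number, and in 545 of 558 groups of genes on 1 chromosome that shared a value, the gap between the genes was no larger than it. For 335 of the 406 protein-coding members (82.5%) the value was smaller than the gene itself, with a median of 13.8% of the gene span. Among silent marked protein-coding genes the share was 72.7% and the median 24.2%. The table gives no position for a domain, so whether a value covers the promoter or the body of a gene cannot be read from it.

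To show what DNA lies before the starts of members with different mark values, the 250 bases upstream of 5 RefSeq gene starts (GRCm38.p6) are printed 5′ to 3′ on the gene's strand, with each CG dinucleotide in capitals. The regions are chr4:154636874-154637123 for Prdm16, chr2:9878601-9878850 for Gata3, chr4:89311033-89311282 for Cdkn2b, chr5:37824586-37824835 for Msx1 and chr15:101869706-101869955 for Krt77, all on the minus strand. The RefSeq start of Gata3 lies inside the GENCODE gene span, and an exon of the antisense gene Gm13256 crosses the window. The other 4 windows lie before the gene, apart from the last bases of the Cdkn2b window, which overlap its annotated first exon.
Prdm16: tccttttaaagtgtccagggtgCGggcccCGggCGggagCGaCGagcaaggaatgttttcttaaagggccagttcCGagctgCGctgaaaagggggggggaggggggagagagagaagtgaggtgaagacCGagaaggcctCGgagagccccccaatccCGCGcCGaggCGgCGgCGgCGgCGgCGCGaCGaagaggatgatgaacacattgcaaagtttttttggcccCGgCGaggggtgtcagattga
Gata3: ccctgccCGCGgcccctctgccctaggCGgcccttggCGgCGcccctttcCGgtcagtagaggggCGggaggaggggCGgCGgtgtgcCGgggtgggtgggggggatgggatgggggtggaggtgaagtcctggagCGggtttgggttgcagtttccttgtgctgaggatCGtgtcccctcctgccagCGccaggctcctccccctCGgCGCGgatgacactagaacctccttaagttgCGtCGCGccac
Cdkn2b: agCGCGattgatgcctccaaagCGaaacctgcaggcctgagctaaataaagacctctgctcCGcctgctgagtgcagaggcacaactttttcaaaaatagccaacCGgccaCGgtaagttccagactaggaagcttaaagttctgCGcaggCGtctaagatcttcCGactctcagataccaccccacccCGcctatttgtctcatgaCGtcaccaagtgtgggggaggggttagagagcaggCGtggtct
Msx1: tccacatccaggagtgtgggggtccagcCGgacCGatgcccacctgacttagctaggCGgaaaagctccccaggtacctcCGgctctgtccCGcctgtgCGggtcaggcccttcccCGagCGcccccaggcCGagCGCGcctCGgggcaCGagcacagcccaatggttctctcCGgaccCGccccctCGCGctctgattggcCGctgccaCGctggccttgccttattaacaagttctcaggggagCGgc
Krt77: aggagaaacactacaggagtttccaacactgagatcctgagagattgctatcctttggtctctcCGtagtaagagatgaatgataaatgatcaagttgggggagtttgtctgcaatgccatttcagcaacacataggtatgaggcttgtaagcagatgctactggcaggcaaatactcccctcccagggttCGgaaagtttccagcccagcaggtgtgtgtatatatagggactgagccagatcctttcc

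These windows held 22 CG dinucleotides for Prdm16 (mark value 44173), 19 for Gata3 (24043), 12 for Cdkn2b (49489), 20 for Msx1 (36567) and 2 for Krt77 (1293). Over the 32851 windows of this length in the RefSeq table, 92.1% held the letters CG, with a median of 6 and quartiles of 2 and 16. GC content was 62.4, 70, 53.6, 68 and 46.8% in the same gene order, and the ratio of observed to expected CG was 0.990, 0.633, 0.670, 0.704 and 0.147. The 4 regulators of transcription and the cell cycle had windows above the median count, and the keratin gene below it. These genes are examples, so nothing about mark values or gene classes is read from their windows. Promoters were matched for 315 of the 441 members (71.4%), too few to summarise over all of them.

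The first 300 bases of the principal GENCODE transcript, found for 405 of the 406 protein-coding members, gave a ratio that could be compared. Its median was 0.734 in expressed marked, 0.675 in silent marked, 0.760 in expressed unmarked and 0.592 in all protein-coding genes. A ratio of at least 0.6, a usual limit for CpG-rich DNA, was reached by 70.9, 60.5, 71.5 and 49.3% of these genes. Expressed marked genes therefore lay nearer to expressed unmarked genes than to silent marked genes on this measure. Transcription regulators among them had a median of 0.786, signalling genes 0.787, X-linked members 0.657 and all members not on X 0.748.

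Most members were protein coding (406 of 441), beside 10 processed pseudogenes, 6 microRNA genes and 4 long intergenic RNAs. Their median level was 4.07, 3.63 and 4.25 TPM in replicates 1, 2 and 3 (3.98 ± 0.318, SD, n = 3). Expressed unmarked genes, held to the same minimum, had medians of 17.4, 13.3 and 13.1 TPM (14.6 ± 2.41). On the log2(TPM + 1) scale, which understates differences of low genes, the members lay lower by 1.86, 1.63 and 1.43, a mean difference of -1.64 ± 0.21. All 3 libraries thus placed the marked genes lower, by a size that depended on the chosen minimum, as given at the end. Of the members, 307 (69.6%) lay between 1 and 10 TPM, 106 (24.04%) between 10 and 100, and 28 (6.35%) at 100 or above. For expressed unmarked genes these shares were 39.3, 51.7 and 9.01%.

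**Figure D1:**
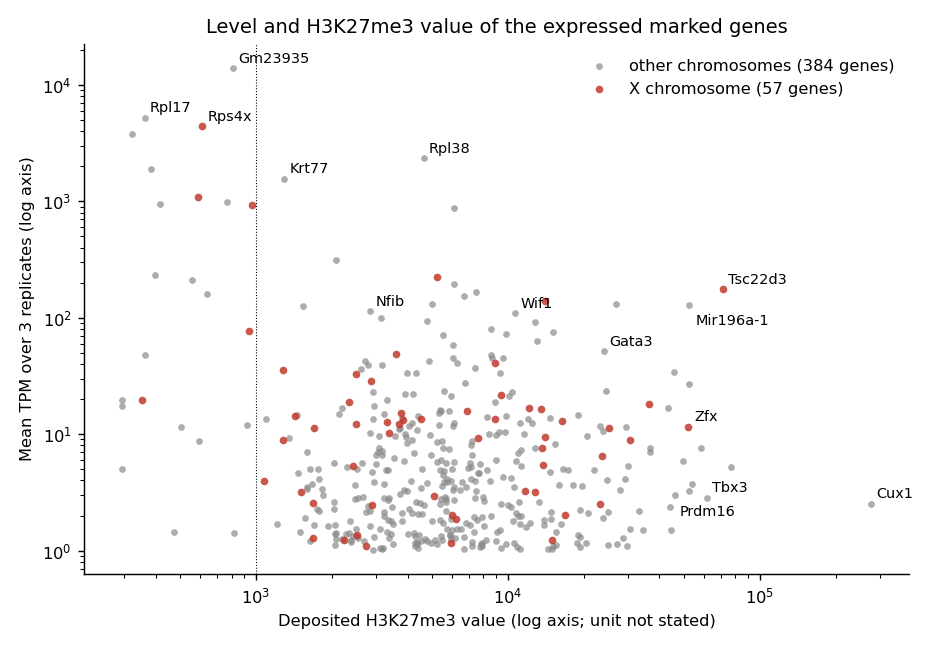
Mean TPM over 3 libraries (vertical, log axis) against the authors' H3K27me3 value (horizontal, log axis, unit not stated) for the 441 expressed marked genes, with the 57 X-linked genes in red, the rest in grey and a dotted line at a value of 1000. Rpl17 and Rps4x stand high at the left with values of 361 and 613, and Cux1 stands alone at the right at 277425.

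The members took 2.28, 2.24 and 2.44% of all counts and 4.45 ± 0.33% of all TPM. In each single library 409, 386 and 406 of them reached 1 TPM, and 342 did so in every library. Near the minimum, the lowest members were Soat1 (1.01 TPM), Fgf2, Scn8a, Slc9a2 (each 1.03) and Shisa7 (1.04). The marked genes closest beneath it were Adh6b (0.997), Hmga2 (0.990), Entpd3 (0.988), Mast1 (0.984) and Hpca (0.973). Fgf2, a growth factor, was listed at 2.35, 0.517 and 0.210 TPM, so replicate 1 alone carried it over.

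The transcription regulators came first among the gene groups, since they are the class Polycomb is known for. By the beginnings of their symbols, 33 of the 441 members (7.48%) were counted as regulators, against 256 of 3133 silent marked genes (8.17%), 283 of 13214 expressed unmarked genes (2.14%) and 1.49% of all entries. Of all 289 marked regulators, 33 (11.4%) were expressed. The name match also took in Rarres1, Arxes1 and Dlx1as, which are not transcription factors. Expressed marked regulators had a median mark value of 10774, and silent marked ones 26309.5.

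Nfib, a nuclear factor of follicle stem cells, had the highest mean TPM among the regulators taken by symbol, at 149, 100 and 91.8 TPM (114 ± 30.7). Its mark value was 2837, and replicate 1 was the highest. In the authors' deposited table, which by its column names sets these libraries against bulge libraries not analysed here, Nfib had a log2 fold change of -2.24 (adjusted p = 1.09e-36). Runx1, another regulator of follicle stem cell activation, stood at 21.9, 24.6 and 16.8 TPM with a value of 5937. It was the one marked gene among the 20 follicle stem cell markers, and the authors' deposited table gave it -2.10 (adjusted p = 1.30e-20). A positive value in that table means higher in the libraries described here.

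Gata3, a factor of the inner root sheath and the epidermal barrier, was present at 59.1, 50.5 and 45.8 TPM (51.8 ± 6.74) with a large mark value of 24043. The 3 libraries were close, and the authors' deposited table gave 0.13 (adjusted p = 0.595). Foxo4, an X-linked forkhead factor, gave 47.6, 50.2 and 49.6 TPM. Its value was 3597, its libraries agreed within a SD of 1.38, and its log2 fold change of 3.15 (adjusted p = 4.81e-23) in the authors' deposited table was among the larger ones of the regulators. Trp73, a relative of p53, gave 51.1, 58.0 and 34.1 TPM. Replicate 3 was its lowest library.

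Fosl1, a subunit of the AP-1 factor, was listed at 36.1, 43.0 and 38.6 TPM. Egr2, an early growth response factor, was listed at 50.4, 30.4 and 28.0 TPM. Elf4, an X-linked ETS factor with a value of only 354, gave 22.2, 22.1 and 14.7 TPM. Fosl1 was similar in all libraries, Egr2 was highest in replicate 1, and Elf4 was lowest in replicate 3.

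Several homeobox factors among the members had large mark values. Dlx5, a distal-less homeobox factor with a value of 58231, stood at 5.74, 9.10 and 7.85 TPM. Msx1, another homeobox factor, stood at 6.89, 8.06 and 7.98 TPM with a value of 36567, beside the CG-rich window printed above. Dlx2 gave 7.73, 12.1 and 11.9 TPM with a value of 23840. For these 3 genes replicate 1 was the lowest library. The authors' deposited table gave Dlx2 2.30 (adjusted p = 3.37e-06), Msx1 1.32 (adjusted p = 0.0065) and Dlx5 -0.91 (adjusted p = 0.0430), so related factors did not share 1 direction.

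Tbx3, a T-box factor with a value of 61675, gave 2.27, 3.18 and 3.06 TPM. Sox21, a factor of hair shaft differentiation, gave 15.1, 15.2 and 13.1 TPM, and Foxi3, a placode factor, 6.66, 20.8 and 15.6 TPM. Foxi3 was lowest in replicate 1, while Sox21 was even across the libraries.

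Prdm16, the gene the series is named for and a zinc finger protein related to histone methyltransferases, was listed at 2.36, 2.55 and 2.23 TPM (2.38 ± 0.161). Its mark value of 44173 was the 15th largest of the members, while its TPM ranked 290th of 441. The 3 libraries agreed closely, and the authors' deposited table gave 0.52 (adjusted p = 0.242). Cux1, a homeobox factor, carried the largest value of all marked genes, 277425, and stood at 2.15, 2.45 and 2.97 TPM. That value was 86.9% of its gene span.

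**Figure D2:**
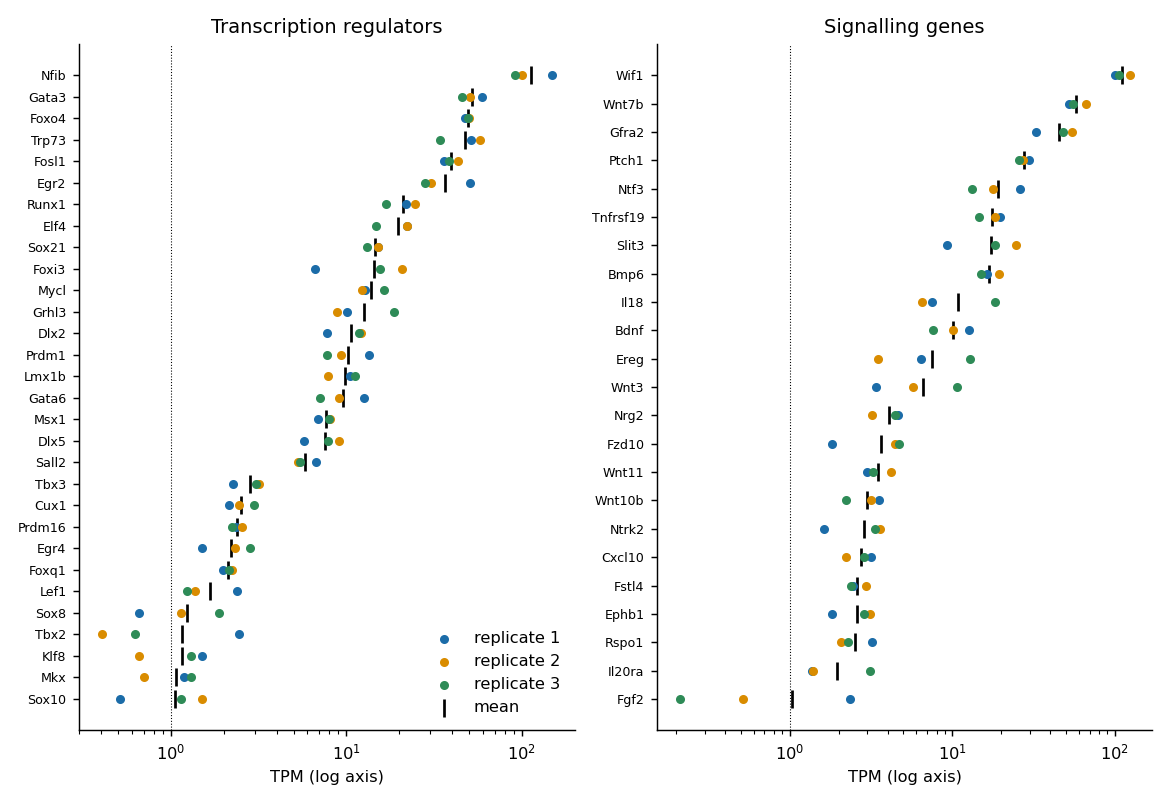
TPM (log axis) of the transcription regulators (left) and signalling genes (right) among the members, with a coloured point for each of replicates 1, 2 and 3, a black tick for their mean and a dotted line at 1 TPM. Nfib and Wif1 lead their panels, and the points of Prdm16 lie close together at 2.23 to 2.55 TPM; name matches that are not regulators or signalling genes (Rarres1, Arxes1, Dlx1as, Egflam and Igfbp5) and genes not reported here are not drawn.

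Signalling genes made up 26 of the 441 members (5.90%), 3.61% of silent marked genes, 1.51% of expressed unmarked genes and 1.06% of all entries. Of all 139 marked signalling genes, 26 (18.7%) were expressed. Among Wnt pathway members, the secreted Wnt inhibitor Wif1 was highest, at 100, 124 and 106 TPM (110 ± 12.3). The ligand Wnt7b followed at 52.4, 66.0 and 55.3 TPM (57.9 ± 7.16). Both were similar across the libraries, and the authors' deposited table gave Wif1 1.98 (adjusted p = 2.93e-13) and Wnt7b 2.77 (adjusted p = 3.95e-20).

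Other Wnt genes lay lower. The ligand Wnt3 was listed at 3.38, 5.75 and 10.7 TPM, highest in replicate 3. The ligands Wnt11 (3.49 ± 0.636 TPM) and Wnt10b (2.97 ± 0.677), the receptor Fzd10 (3.66 ± 1.59), the agonist Rspo1 (2.52 ± 0.605) and the Wnt-removing hydrolase Notum (2.08 ± 0.193) were between 2 and 4 TPM on average. Lef1, the transcription factor that acts with beta-catenin, was listed at 2.40, 1.37 and 1.23 TPM with a value of 13866. Ligands, inhibitors and 1 receptor of the same pathway were thus all among the expressed marked genes. In the authors' deposited table Wnt10b had 3.27 (adjusted p = 0.000463), Fzd10 2.00 (adjusted p = 0.00405), Wnt3 1.68 (adjusted p = 0.00555) and Wnt11 1.59 (adjusted p = 0.00432). The authors' deposited table gave Rspo1 0.62 (adjusted p = 0.448) and Lef1 -0.77 (adjusted p = 0.0556), so these genes did not all share 1 direction.

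Neurotrophic factors formed another set of ligands with receptors. Ntf3 gave 26.0, 17.9 and 13.2 TPM, Bdnf 12.6, 10.1 and 7.64, and Gdnf, with a large value of 29477, 11.2, 13.9 and 9.77. Ntf3 and Bdnf were highest in replicate 1, and Gdnf in replicate 2. The GDNF family co-receptor Gfra2 stood at 32.6, 54.6 and 48.1 TPM and the Bdnf receptor Ntrk2 at 1.63, 3.59 and 3.37. Both receptor genes were lowest in replicate 1. Gdnf was not covered by the symbol list and was chosen after its values were seen.

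Ptch1, the hedgehog receptor, was listed at 29.5, 27.4 and 25.6 TPM, and in the authors' deposited table at -0.97 (adjusted p = 4.59e-05). Bmp6, a bone morphogenetic protein made by quiescent follicle stem cells, gave 16.3, 19.3 and 14.96 TPM. Tnfrsf19, a Wnt-responsive receptor of follicle cells, gave 19.8, 18.3 and 14.6 TPM. All 3 varied little between libraries. Slit3, a guidance ligand, gave 9.31, 24.5 and 18.2 TPM and the interleukin Il18 7.47, 6.52 and 18.4 TPM, with the lowest library being replicate 1 for Slit3 and the highest being replicate 3 for Il18.

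Several of the highest TPM values of the members belonged to genes with small mark values. Rpl17 (5829, 4741 and 5143 TPM; mark value 361), Rpl36 (3808, 3928 and 3625; value 321) and Rps4x (4726, 4134 and 4393; value 613) encode ribosomal proteins. Rpl38 (2344 ± 170; value 4625), Rpl31 (1898 ± 244; value 382), Rpl39 (1098 ± 15.1; value 591) and the ribosome-bound scaffold gene Gnb2l1 (942 ± 116; value 414) followed. Of these 7 genes, only Rpl38 had a value over 1000. The short microRNA entries Gm23935 (13961 ± 2173 TPM) and Gm24270 (995 ± 697) completed the top 10 with Krt77. Ribosomal protein genes have many near-identical copies and the microRNA entries are 57 bases long, so how reads were divided among copies makes these values uncertain.

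Krt77, a keratin of differentiated skin epithelium, gave 952, 1255 and 2482 TPM (1563 ± 810) with a value of 1293. Replicate 3 was the highest, as it was for the sum of the suprabasal markers (3770, 4934 and 7889 TPM). Wfdc21, a small secreted protein, gave 60.1, 69.3 and 147 TPM, the tight junction gene Cldn4 27.4, 31.4 and 58.2, and Elovl4, a fatty acid elongase of the skin barrier, 28.8, 26.3 and 56.6. Each of them was also highest in replicate 3. What the suprabasal cells contributed to these differences was not tested.

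Marked genes were split by mark value into 4 classes of nearly equal size, and the share expressed was lower in each wider class. In the lowest class (values 293 to 4124) 165 of 896 genes were expressed (18.4%), in the next 123 of 893 (13.8%), then 94 of 892 (10.5%), and in the highest (15943 to 277425) 59 of 893 (6.61%). Taken per library, the lowest class had 18.7 ± 0.867% and the highest 6.46 ± 1.01% of genes at 1 TPM or more. With protein-coding genes alone the shares were 23.5, 17.6, 14.1 and 11.5%, so the order was kept. Genes within a domain are not independent, and these shares were not tested.

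**Figure D3:**
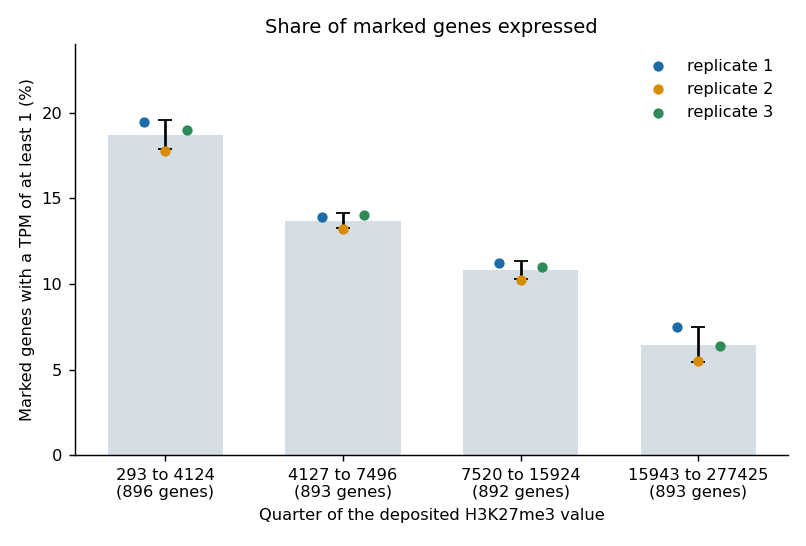
Share of marked genes with at least 1 TPM (vertical, percent, from 0) in 4 classes of the H3K27me3 value, with points for the 3 libraries, bars for their mean and error bars for the SD. The bars step down from 18.7% to 6.46%, and the points of the lowest and highest classes do not overlap.

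Across all 3574 marked genes, Spearman's correlation between value and TPM was -0.166, -0.154 and -0.144 in the 3 libraries. Within the members, which the minimum of 1 TPM had already selected, median TPM of members was 4.89, 3.80, 4.24 and 4.00 over the classes. The same correlation across the 441 members was -0.064, -0.061 and -0.062, and 0.024, 0.041 and 0.041 across the 418 members with a value of at least 1000. The 23 members with a value under 1000, among 78 such genes (29.5%), had a median of 161 TPM when each gene's mean was used. Taken library by library, that median was lower in replicates 1 and 2, at 77.8, 78.2 and 160 TPM. Regulators made up 4.85, 2.44, 8.51 and 23.7% of the members from the lowest to the highest class. Among silent marked genes of the same classes the shares were 1.64, 2.60, 6.39 and 20.7%. In the highest class 14 of 59 members and 173 of 834 silent genes were regulators by name, so the share was high in both.

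The 12 members with the 10 largest values were led by Cux1, followed by Ostm1, an osteopetrosis-associated membrane protein (76862; 6.15, 4.92 and 4.71 TPM). Tsc22d3, the glucocorticoid-induced leucine zipper gene on X, had a value of 71537 and stood at 355, 47.7 and 124 TPM. Replicate 1 was far above the others for Tsc22d3. After Tbx3 and Dlx5 came the pseudogene Gm10499 (53905; 10.4, 0.580 and 0.258 TPM), which passed the minimum through replicate 1 alone. Zfx, an X-linked zinc finger activator (52134), was listed at 16.9, 8.43 and 9.36 TPM, Cdkn2b (49489) at 4.00, 7.50 and 6.00, and the thymus-type protease Prss16 (45949) at 5.50, 0.329 and 3.18.

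The other 3 lay in the Hoxb cluster on chromosome 11 and shared a value of 52302: Mir196a-1, the long RNA Gm53 and the pseudogene Gm11539. The Mir196a-1 entry (chr11:96265164-96265265) gave 168, 130 and 86.4 TPM, Gm53 31.0, 25.8 and 24.7, and Gm11539 2.00, 2.75 and 5.01. Mir196a-1 was highest in replicate 1. Its 2 mature arms are printed here from RefSeq, with the seed (bases 2 to 8) in capitals, because this microRNA lies among the Hox genes it is known to target. The count belongs to reads over the hairpin entry in polyadenylated RNA, not to either arm.
mmu-miR-196a-5p: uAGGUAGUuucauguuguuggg
mmu-miR-196a-1-3p: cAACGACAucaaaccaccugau

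The 441 genes had 420 distinct values, 402 of which had 1 member, 15 had 2 and 3 had 3. Because equal values can occur by coincidence on different chromosomes, domains were also taken as neighbours on 1 chromosome with 1 value, which gave 428 domains with a member out of 2774. Of these, 338 held a single gene, 81 held both expressed and silent genes, and 9 held several genes that were all expressed. Over all 2774 domains, 2239 held a single gene. A member lay in 15.1% of single-gene domains and in 16.8% of those with several genes, so the grouping was not particular to the members. In 27 domains an expressed protein-coding gene lay beside a silent protein-coding one, 27 such neighbours in all, 9 of which had 0 counts in every library.

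In the Cdkn2 locus on chromosome 4 the cyclin-dependent kinase inhibitor Cdkn2b was listed at 4.00, 7.50 and 6.00 TPM. Its neighbour Cdkn2a, under the same value of 49489, had no count in any library, and the upper limit for a count of 0 (3 counts) was 0.237, 0.187 and 0.166 TPM. Every library therefore placed Cdkn2b above that limit for Cdkn2a. Dlx5 lay beside Dlx6, which had 0 counts in every library and a limit of 0.117 TPM in replicate 1. Dlx2 lay beside Dlx1, listed at 0.653, 0.582 and 0.360 TPM.

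Ostm1 shared its value with Nr2e1, a neural nuclear receptor with 0 counts and a limit of 0.0750 TPM in replicate 1. Sp2, a widely expressed zinc finger factor (11.9, 18.8 and 20.2 TPM), lay beside Sp6, a factor of teeth and hair at 0.0725, 0.190 and 0.371 TPM. In these pairs the groups of library values did not overlap, which the choice of members by TPM largely fixes. The nucleotidase Nt5c2 (33.8 ± 7.35 TPM) lay beside the neuronal filament gene Ina (0.0266 ± 0.0288), and the splicing gene Rsrc1 (5.30 ± 1.62) beside the homeobox gene Shox2 (0.0793 ± 0.0719).

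**Figure D4:**
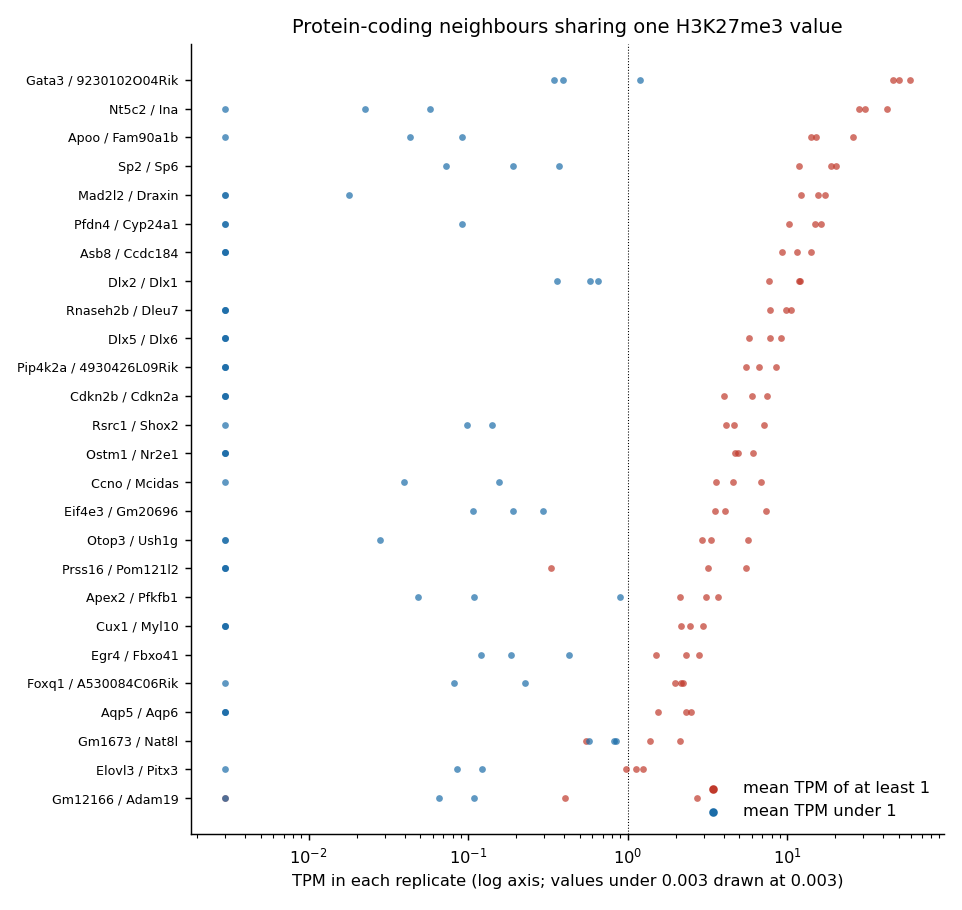
TPM in each library (horizontal, log axis, with values at or near 0 drawn at the left edge) for pairs of protein-coding genes that share 1 H3K27me3 value on 1 chromosome, the expressed gene in red and the gene under 1 TPM on average in blue, with a dotted line at 1 TPM. The points of Cdkn2b lie at 4.00 to 7.50 TPM and those of Cdkn2a at the left edge, while in pairs near the line, such as Gm1673 and Nat8l, the points overlap.

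The gene for the acetylcholine-synthesising enzyme Chat shared its domain with another protein-coding member and with the antisense gene Gm2990, which lay under the minimum (0.586, 1.45 and 0.760 TPM). Chat was listed at 157, 64.2 and 62.3 TPM, and the vesicular acetylcholine transporter gene Slc18a3, which lies within Chat on the same strand, at 2.08, 5.45 and 3.87 TPM. Replicate 1 was the highest for Chat and the lowest for Slc18a3. Reads over such nested genes may be assigned to either, and the counting rule was not given in the sources used here.

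Position in the genome was not used in the choice of members. Of the 441, 57 lay on X (12.9%), against 8.33% of silent marked genes, 2.83% of expressed unmarked genes and 2601 of all 44625 entries. Put the other way, 13.2% of expressed X-linked genes and 2.91% of expressed autosomal genes carried a mark value, and for protein-coding genes 14.2 and 3.11%. Over all levels, 318 of the 2601 X-linked and 3242 of the 40184 autosomal entries were marked and had no Hox symbol. Marked genes were expressed in 17.9% of cases on X and 11.8% on autosomes. The median TPM of X-linked members was 12.9, 10.8 and 9.80, close to the 14.2, 11.2 and 10.7 of unmarked X-linked genes. Autosomal members had medians of 3.51, 3.42 and 3.87 TPM, against 17.5, 13.4 and 13.2 for unmarked autosomal genes.

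Examples on X were Rps4x, Rpl39, the actin-bundling gene Pls3 (209, 212 and 256 TPM), the mitochondrial dehydrogenase gene Hsd17b10 (136, 129 and 149) and the Polycomb partner Bcor (8.22, 8.04 and 6.48). These levels were steady across the libraries. Xist, the RNA that coats the inactive X of female cells, was listed at 0.0828, 0.208 and 0.340 TPM, while the Y-linked genes Ddx3y and Eif2s3y stood at 20.4 ± 7.67 and 31.4 ± 13.5 TPM. The sex of the animals behind the mark values was not given in the sources used here, so its part in the X-linked share was not tested.

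**Figure D5:**
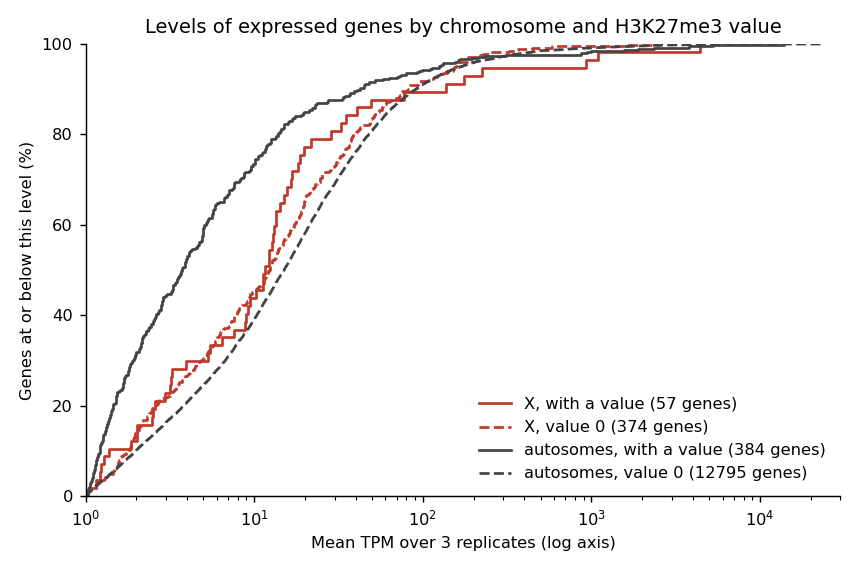
Cumulative share of expressed genes (vertical, percent) at or below a mean TPM (horizontal, log axis) for genes on X (red) and on autosomes (dark grey), with a mark value (solid lines) or a value of 0 (dashed lines). The solid and dashed lines run close together for the 57 and 374 X-linked genes, and the solid line of the 384 autosomal members lies to the left of that of the 12795 unmarked genes over most of the range.

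Lists of core Polycomb genes held no marked gene. Of the complex 2 genes 10 of 11 were expressed, with Phf19 under the minimum, of the complex 1 genes 19 of 19, and of the demethylase genes 3 of 3. The enzyme gene Ezh1 was listed at 46.4, 35.04 and 30.9 TPM and Ezh2 at 14.1, 4.87 and 3.91, both highest in replicate 1. The demethylase gene Kdm6b was listed at 22.8, 55.5 and 43.8 TPM, lowest in replicate 1.

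Among sebaceous gland genes, 6 of 14 were marked, and 5 of those were members. Gata6, a regulator of the sebaceous duct and upper follicle, gave 12.7, 9.10 and 7.06 TPM with a value of 20585. Prdm1, a zinc finger repressor of sebaceous and epidermal cells, gave 13.4, 9.30 and 7.77 TPM with a value of 2846. Both were highest in replicate 1. Far2, a fatty acyl-CoA reductase, gave 1.95, 0.619 and 1.60 TPM, and the elongase Elovl3 1.24, 0.978 and 1.13. Pparg, the sebocyte nuclear receptor, was marked (10603) and lay under the minimum at 1.29, 0.420 and 0.329 TPM, although replicate 1 alone exceeded it.

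Of 26 imprinted genes examined, from a list that is not complete, 8 were marked and 4 of these were members. H19, a growth-limiting RNA, gave 0.665, 2.22 and 2.27 TPM, and the Notch-related ligand gene Dlk1 1.46, 3.83 and 5.78. The adaptor gene Grb10 gave 2.19, 0.916 and 1.46 TPM, and the zinc finger gene Plagl1 4.66, 2.33 and 2.78. Replicate 1 was the lowest for H19 and Dlk1 and the highest for Grb10 and Plagl1. The growth factor gene Igf2 (mark value 65068) was silent, at 0.113, 0.153 and 0 TPM. Sox10, a factor of melanocytes and glia, was listed at 0.513, 1.51 and 1.15 TPM and was the one member among the markers of both.

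How far the members shared in the difference of replicate 1 depended on the scaling. The highest of the 3 TPM values fell in replicate 1 for 195 members (44.2%), in replicate 2 for 106 (24.04%) and in replicate 3 for 140 (31.7%). For expressed unmarked genes the shares were 60.1, 19.9 and 20.02%. With TMM factors the shares in replicates 1, 2 and 3 were 36.5, 27.2 and 36.3% for members and 47.9, 26.1 and 26.0% for unmarked genes. With median-of-ratios size factors they were 32.4, 28.6 and 39.0% for members and 41.9, 27.9 and 30.3% for unmarked genes. Replicate 3 then held the largest share of members. TMM and median-of-ratios factors moved replicate 1 by -0.12 and -0.18 on the log2 scale. Members more than 1 above both other libraries in replicate 1 numbered 23 (5.22%), against 10.6% of all expressed genes, and members more than 1 below numbered 15 (3.40%), against 2.26%. Replicate 2 held 1 member that much higher (0.227%, against 0.527% of all expressed genes) and 8 that much lower (1.81%, against 1.16%). Replicate 3 held 7 higher (1.59%, against 1.29%) and 3 lower (0.680%, against 1.59%). These shares were not tested against each other.

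In the authors' deposited table, 437 members had an adjusted p, of which 136 (31.1%) were higher in the libraries described here at an adjusted p under 0.05. This stands beside 23.6% of all 20274 genes with an adjusted p and 35.3% of expressed unmarked genes. Another 85 members of the authors' deposited table (19.5%) were lower, beside 32% of all genes and 25.9% of expressed unmarked genes, and 216 members passed in neither direction. Because the members were chosen by their level in 1 arm of that comparison, nothing is read from these counts. The median log2 fold change in the authors' deposited table was 0.53 for members, 0.24 for expressed unmarked genes and -0.36 for all genes. For members on X the authors' deposited table gave 12 higher and 20 lower of 57, with a median of -0.17, and for the others 124 higher and 65 lower of 380, with a median of 0.61. Regulators had 10 higher and 4 lower of 33 in the authors' deposited table, and signalling genes 13 higher and 3 lower of 26.

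Among members, the authors' deposited table held its 10 highest log2 fold changes at an adjusted p under 0.05 for Wfdc21 (7.42, adjusted p = 2.38e-12), Cldn4 (5.03), the phosphodiesterase gene Pde1b (4.69), the neuropeptide gene Grp (4.58), Rpl38 (4.54), Gm10254 (4.30), Mir196a-1 (4.06), the glycosyltransferase gene Galnt6 (4.04), Notum (4.02) and Il18 (3.95). Several of these were low in TPM: Pde1b stood at 0.597, 2.15 and 2.72, Galnt6 at 1.17, 0.491 and 2.56, and Grp at 4.38, 1.52 and 8.94. For Grp and Galnt6 replicate 3 was the highest library and replicate 2 the lowest.

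The authors' deposited table held its 10 lowest ones among members for the kinase gene Camk1g (-4.32, adjusted p = 9.51e-26), Gm10687 (-3.90), the neuronal protease gene Prss12 (-3.80), Gm23935 (-3.73), the reticulon gene Rtn2 (-3.48), Chic1 (-3.20), the bromodomain gene Brwd3 (-2.95), Gm25654 (-2.81), the sarcoglycan gene Sgcd (-2.73) and the neural splicing gene Srrm4 (-2.71). Rtn2 stood at 18.2, 17.0 and 13.2 TPM and Srrm4 at 7.93, 6.14 and 6.89, so a lower value in that table did not mean a level near the minimum. Camk1g, at 1.58, 0.821 and 0.940 TPM, did lie near it. Gm25654 had 4.22, 0 and 0 TPM and is a small nuclear RNA gene counted in replicate 1 alone.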

How the data were processed

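RNA from 3 libraries of 1 group was measured. The members and the gene lists were chosen with earlier results of these data known. Per the file headers, the authors deposited 1 table of whole-number read counts and TPM values per gene, the mark value, a log2 fold change with its adjusted p-value, and a score, which was not used. The submitters' processing notes name FastQC, SAMtools, TopHat2, DESeq, DESeq2, mm10 and GRCm38 without roles. The counting tool, its strand setting and the test behind the p-value were not given in the sources used here. Antisense and overlapping genes can therefore not be told apart. Another 6 columns of per-sample values matched no sample and were not used. A positive fold change was read as higher in these libraries, because all 2555 genes with a fold change and 0 counts in every library had a negative one.

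Members had a mark value above 0, a mean TPM of at least 1 and no symbol beginning with Hox. Symbols turned into numbers (27) were resolved by identifier, and 44392 entries were found in GENCODE M21 (GRCm38), which gave positions and gene types. With 1 group no contrast was fitted, and values are given per library or as mean ± SD. Regulators and signalling genes were taken by symbol stems. Genes were named by rule: the 10 highest by TPM, those with the 10 largest mark values, the 5 on each side of the minimum, members of the gene lists, the 10 highest and 10 lowest in the authors' deposited table at an adjusted p under 0.05, the 10 leading regulators and signalling genes, and Prdm16. Other named genes were chosen after their values were seen. A few genes counted in the totals are not reported here by name. The check of CpG content over promoters was void, since under 80% matched, and the first 300 transcript bases were used in its place, chosen after seeing the data. Depth limits single values: a count of 3, the upper limit for 0 counts, equals a CPM of 0.102, 0.0851 and 0.0765, for counting error only. Python 3.11.15, pandas 2.3.3, numpy 2.4.6, scipy 1.17.1, matplotlib 3.10.9, R 4.3.3 and edgeR 4.0.16 (TMM factors) were used, and the counting steps were tested on simulated data. Alternatives were other minima, pseudocounts, scalings and gene classes, and leaving out each library.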

Additional observations from a re-analysis of the deposited data

How the results depend on the processing

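No paired analysis was possible because the libraries form 1 group. Of the alternative values computed for the summaries over members, 95 stayed within the spread between libraries (counts: within 1.5 times) and 67 moved further. That spread was the SD of the summary computed from each library alone, with members chosen anew, so it can differ from the SDs printed above. Only the log2 difference and the difference between mark classes could change sign, and 0 of their values did. Apart from the pseudocount, the scalings and the definition of a domain, the alternatives below differ in which genes or libraries they keep.

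The number of members, 441, was 198 at a minimum of 5 TPM and 240 with a mark value of at least 5000. Domains with a member, 420, numbered 192 and 231 in these settings, and members highest in replicate 1 numbered 91 and 96. Domains with both expressed and silent genes, 128 by value alone, numbered 61 at 5 TPM, 65 with protein-coding genes, 79 with a value of at least 5000 and 81 when neighbours on 1 chromosome were required.

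The share of marked genes expressed, 12.3%, was 17.2, 8.73 and 5.54% at minima of 0.5, 2 and 5 TPM, 9.57% with 1 TPM in every library, 17.1% for protein-coding genes and 10.03% with a value of at least 5000. The median TPM of members was 2.10, 7.59 and 13.7 at those minima, 6.11 with 1 TPM in every library and 3.74 on autosomes. The log2 difference from expressed unmarked genes was -2.06, -1.12 and -0.72 at those minima, -1.33 with 1 TPM in every library, -1.91 for protein-coding genes and -1.84 with a pseudocount of 0.1. With no filter on low values it was 0, since both medians were then 0.

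The share of regulators was 7.33, 8.33 and 10.1% at the minima of 0.5, 2 and 5 TPM, 7.89% with 1 TPM in every library, 7.88% for protein-coding genes, 10.4% with a value of at least 5000 and 7.66% with one of at least 1000. The median CpG ratio of members of all gene types, 0.731, was 0.717 and 0.735 at minima of 0.5 and 2 TPM, 0.751 with 1 TPM in every library, 0.777 with a value of at least 5000 and 0.739 on autosomes.

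The share of expressed X-linked genes with a value was 14.8% at 0.5 TPM, 14.1% with 1 TPM in every library, 14.2% for protein-coding genes, and 6.97 and 12.2% with values of at least 5000 and 1000. On autosomes it was 3.70, 2.23 and 1.61% at the 3 minima, 2.49% with 1 TPM in every library, 3.11% for protein-coding genes, and 1.63 and 2.78% with the higher values. The lowest class of the mark value exceeded the highest in the share expressed by 11.8 percentage points, and by 15.03, 8.35 and 5.91 at the minima, 9.69 with 1 TPM in every library, 11.4 for protein-coding genes, 8.47 and 10.6 with values of at least 5000 and 1000, and 10.8 on autosomes.

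Leaving out each library in turn gave 431 to 460 members, 6.96 to 7.05% regulators, a CpG ratio of 0.728 to 0.732, 13.1 to 14.2% of expressed X-linked genes with a value, and a difference between the classes of 12.03 to 12.3 points. Without replicate 1, 409 of the 441 remained, without replicate 2 433 and without replicate 3 424. Of the genes named by rule, Camk1g, Chic1, Fgf2, Gm10499, Gm25654, Prss12, Scn8a and Slc9a2 lay below 1 TPM without replicate 1, Sox10 without replicate 2 (0.830 TPM), and Galnt6 (0.832), Shisa7 (0.819) and Soat1 (0.994) without replicate 3. Fgf2 lay below it with TMM factors (0.975) and, with Slc9a2 (0.991), with median-of-ratios factors (0.948). Without replicate 1, Tsc22d3 averaged 85.9 TPM and Gm10499 0.419.

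The autosomal setting, the value of at least 1000, the transcript window, the X-linked shares and the classes of the mark value were chosen after seeing the data. Members near 1 TPM rest on few reads, and with 3 libraries of unclear independence no single difference between libraries was tested. The source and position of the mark are not given in the sources used here.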
